A study of Homo sapiens with 4 samples.

Results

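The platelet-derived growth factor (PDGF) genes examined here were the receptors PDGFRA and PDGFRB, the receptor-like gene PDGFRL, and the ligands PDGFA, PDGFB, PDGFC and PDGFD, in the human glioblastoma line U87TR-Da. They were taken by name as every probe set that the platform annotation gives to one of these 7 genes and to no other gene, which came to 16 of 41091 such probe sets and 7 of 19775 genes. The members were chosen with their signals on these arrays already known, so their values are a description and carry no test. U87TR-Da derives from U87MG and can be made to express DACH1, a nuclear repressor of transcription, with doxycycline. Total RNA was hybridised to 4 Affymetrix arrays, 1 each for DACH1-induced and DACH1-silenced cells in Neurobasal medium without serum (N-2, B-27, bFGF and EGF added) and for induced and silenced cells in DMEM with 10% FBS. The labels of all 4 samples, silenced ones included, name 1 µg/mL doxycycline for 72 h, so how silenced cells were handled is not given. No condition was repeated, so no value has a replicate error and 4 arrays set the precision.

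PDGF ligands are secreted as disulphide-linked dimers and activate receptor tyrosine kinases at the cell surface, which then recruit PI3-kinase, Src family kinases and the Grb2 and Ras pathway. The alpha receptor binds A, B and C chains, and the beta receptor binds mainly B and D chains. PDGF-C and PDGF-D are made with an added CUB domain that proteases remove outside the cell. In the brain the alpha receptor marks oligodendrocyte progenitors and the beta receptor marks pericytes, and PDGFRA is amplified in a subset of glioblastomas.

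DACH1 was read first, since it checks the labels. Its brightest probe set gave 4431 on the induced and 126 on the silenced array labelled serum, and 875.1 on the induced and 32.5 on the silenced array labelled serum-free. Its other probe sets read at most 24.7 on any array, with no induced array standing above its silenced one by 2-fold where either reached the floor. Array medians lay between 15.7 and 19.3. A signal below 10.9, which is the 40th percentile over the 4 arrays, was taken as no measured level and is called under the floor. A pair of arrays was compared at a gene where the brighter one reached 17.2, the overall median. Among markers given for a glioma line, VIM read between 6065 and 9278 and CD44 between 4214 and 5666, but the glial markers GFAP and S100B and the stem cell factor SOX2 were under the floor on all 4 arrays. The media are called by their labels, because serum-response genes did not run one way. EGR1 was 41.3-fold and 19.3-fold lower under the serum-free label in induced and silenced cells, while CNN1, a smooth muscle calponin gene, was 15.4-fold and 26.3-fold higher.

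Of the 16 probe sets, 5 lay under the floor on every array, 8 reached 17.2 on at least 1 array, and 3 reached a signal of 100. The probe sets that reached 100 were 1 of PDGFRA and both of PDGFC. With DACH1 induced in the arrays labelled serum, PDGFRA was higher and PDGFC lower, each by more than 2-fold.

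**Figure D1:**
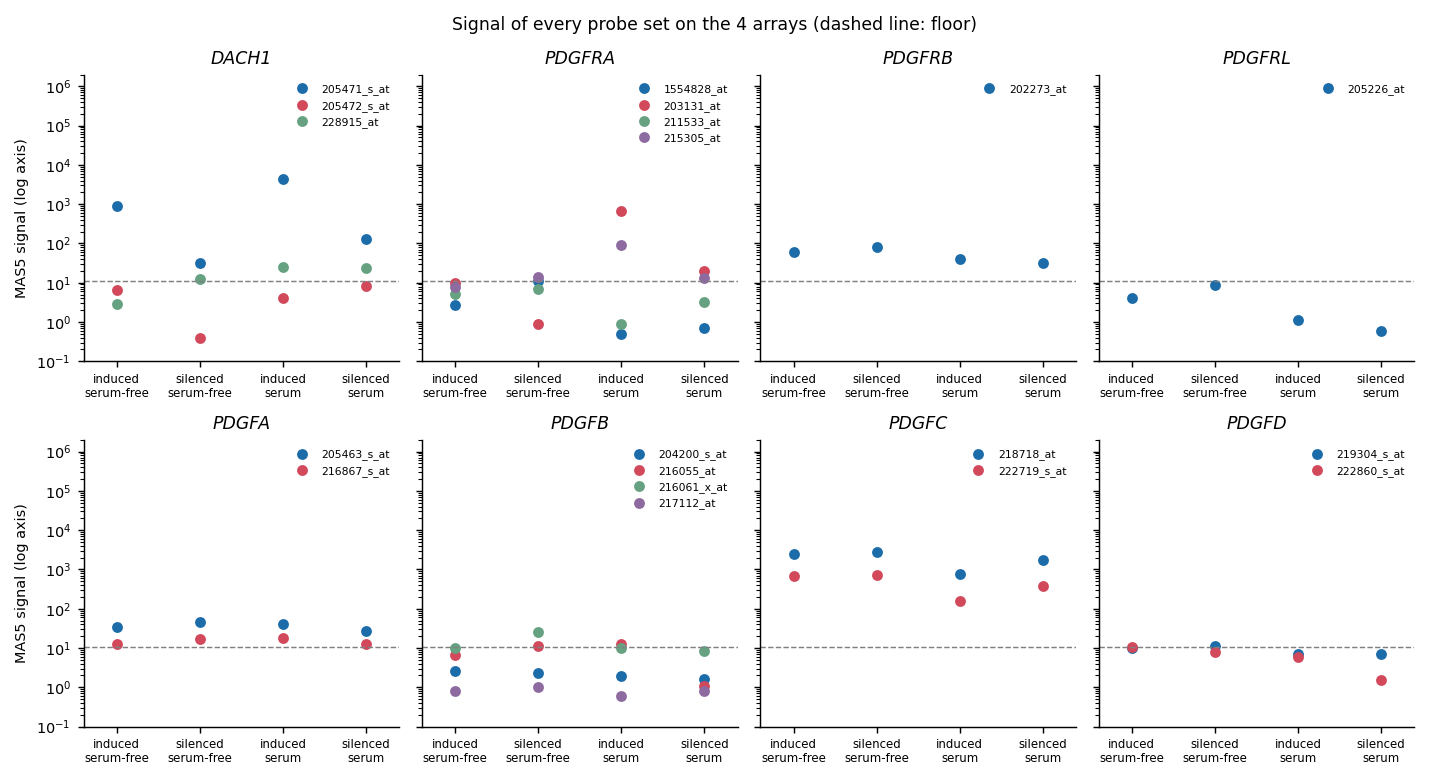
Signals of all probe sets of DACH1 and the 7 PDGF genes on the 4 arrays, as MAS5 signal on a log axis, with 1 point per array and the floor of 10.9 dashed. PDGFRA stands high on a single array, the induced one labelled serum, while both PDGFC probe sets are bright on all 4 arrays and dimmest on that same array.

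PDGFRA encodes the alpha receptor, on chromosome 4 from 54229293 to 54298245 of GRCh38.p14. Its probe set 203131_at, which represents the gene, read 656.2 on the induced and 19.7 on the silenced array labelled serum, a 33.3-fold higher signal (log2 difference 5.06). On the arrays labelled serum-free it read 9.7 with DACH1 induced and 0.9 with DACH1 silenced, both under the floor, so no fold is given there. One array of 4 was thus high, and the other 3 lay near or under the floor. On its own array the signal of 656.2 was above 94.5% of all probe sets, and 19.7 was above 53.3% of those on the silenced array. A second probe set, 215305_at, read 92.7 in the induced and 13.1 in the silenced cells labelled serum, 7.08-fold higher, and 7.9 and 13.8 in induced and silenced cells labelled serum-free. Probe sets 211533_at and 1554828_at did not reach 17.2 on any array, the first reading 0.9 to 7.0 and the second 0.5 to 11. The high signal on the induced array labelled serum was thus read by 2 of the 4 probe sets of the gene, and where each lies on the transcript was not analysed here.

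Between media, PDGFRA in induced cells was at least 60.2-fold lower under the serum-free label (9.7, against 656.2 under the serum label), and probe set 215305_at was at least 8.5-fold lower (7.9, against 92.7). In silenced cells it read 0.9 under the serum-free label, against 19.7 under the serum label, at least 1.81-fold lower, and 215305_at read 13.8 and 13.1. The DACH1 transcript itself was 5.06-fold lower in induced cells under the serum-free label. Whether the lower DACH1 signal bears on PDGFRA there was not tested.

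The sequence before each annotated start of the 2 receptor genes is shown, because the alpha receptor's transcript stood so far apart on 1 array while the beta receptor's did not. Such sequences at RefSeq starts (GRCh38.p14) were found for 4 of the 7 genes, PDGFRA, PDGFRB, PDGFA and PDGFD. None was found for PDGFB and PDGFC, and PDGFRL was not looked up. PDGFRA has 2 starts. Each line gives the 250 bases before a start, 5′ to 3′, and capitals mark matches to the motifs searched on both strands.
PDGFRA, chr4:54229043-54229292, + strand: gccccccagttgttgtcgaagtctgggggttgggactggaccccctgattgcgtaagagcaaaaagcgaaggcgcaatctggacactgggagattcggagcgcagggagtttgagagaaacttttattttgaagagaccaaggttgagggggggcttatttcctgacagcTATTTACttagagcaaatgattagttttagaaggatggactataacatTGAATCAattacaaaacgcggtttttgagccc
PDGFRA, chr4:54233710-54233959, + strand: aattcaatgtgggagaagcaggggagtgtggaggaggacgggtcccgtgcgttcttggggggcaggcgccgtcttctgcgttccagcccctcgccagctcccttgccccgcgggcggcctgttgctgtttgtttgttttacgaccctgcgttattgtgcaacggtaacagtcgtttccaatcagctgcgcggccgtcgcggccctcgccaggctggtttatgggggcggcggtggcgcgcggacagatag
PDGFRB, chr5:150155846-150156095, - strand: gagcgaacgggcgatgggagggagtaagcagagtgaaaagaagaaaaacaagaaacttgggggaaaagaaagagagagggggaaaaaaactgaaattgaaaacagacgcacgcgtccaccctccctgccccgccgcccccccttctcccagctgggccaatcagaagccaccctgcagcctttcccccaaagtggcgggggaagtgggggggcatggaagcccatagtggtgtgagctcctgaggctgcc
The motifs were TGANTCA, the AP-1 element, TGTTTAC and TATTTAC, forms of the forkhead element, and TATAAA, the TATA box, and no matches overlapped. The upstream PDGFRA window held 1 TGANTCA match, whose first base lies 32 bases before the start, and 1 TATTTAC match, 80 bases before it. Of 35116 such windows in the table, 6.57% hold TGANTCA, 2.39% hold TATTTAC, 2.98% hold TGTTTAC and 10.7% hold TATAAA. The downstream PDGFRA window and the PDGFRB window held none of these letters. The PDGFRA windows differ in composition, with 46.8% G and C and 8 CpG in the upstream one and 64% and 25 CpG in the downstream one, against medians of 58% and 11 over all windows. These matches describe letters only, and no binding was measured.

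PDGFRB encodes the beta receptor, on chromosome 5. Its single probe set read 40.2 on the induced and 31.6 on the silenced array labelled serum (1.27-fold higher), and 62.2 on the induced and 80.4 on the silenced array labelled serum-free (1.29-fold lower). Both differences lie within what genes of this brightness showed in general. Where the brighter array read 17.2 to 50 in the pair labelled serum, 90% of 3007 genes differed by less than 2.07-fold. Where it read 50 to 100 in the pair labelled serum-free, 90% of 1971 genes differed by less than 1.53-fold. Under the serum-free label it was higher in both states, 62.2, against 40.2 under the serum label, in induced cells (1.55-fold), and 80.4, against 31.6, in silenced cells (2.54-fold). PDGFRL, on chromosome 8, encodes a secreted receptor-like protein without a kinase domain. It read between 0.6 and 8.8, under the floor on all 4 arrays, so no level of it was measured.

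PDGFC encodes a ligand of the alpha receptor and lies on chromosome 4, from 156760454 to 156971799. Its probe set 218718_at, which represents the gene, read 775.8 on the induced and 1775 on the silenced array labelled serum, 2.29-fold lower. Its other probe set, 222719_s_at, read 157.7 and 383.6 on the same arrays, 2.43-fold lower. On the arrays labelled serum-free 218718_at read 2450 in induced and 2812 in silenced cells (1.15-fold lower), and 222719_s_at read 669.2 and 742.1 (1.11-fold lower). Both probe sets were thus lowest on the induced array labelled serum, the array on which PDGFRA was highest. The DACH1 difference of PDGFC on the log2 scale was -0.20 labelled serum-free and -1.19 labelled serum.

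PDGFC was brighter under the serum-free label in both DACH1 states. In induced cells it read 2450, against 775.8 under the serum label, 3.16-fold higher, with 4.24-fold for the other probe set. In silenced cells it read 2812, against 1775, 1.58-fold higher, with 1.93-fold for the other. Of 8 housekeeping genes, 7 were higher and 1, TBP, was lower under the serum-free label in either DACH1 state, with a median log2 difference of 0.39 in induced and 0.50 in silenced cells. The PDGFC differences on that scale were 1.66 and 2.09 for its probe sets in induced cells and 0.66 and 0.95 in silenced cells, and the medians over all genes were 0.01 and 0.06. The part of the housekeeping shift in the PDGFC difference was not tested.

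PDGFA encodes the A chain, a ligand of the alpha receptor alone. Its probe set 205463_s_at read 42.0 on the induced and 27.6 on the silenced array labelled serum (1.52-fold higher), and 34 on the induced and 45.8 on the silenced array labelled serum-free (1.35-fold lower). Probe set 216867_s_at ran the same way at 17.5 and 13.0, then 12.6 and 17.3, for induced and silenced cells in the same order of media. Neither probe set passed 2-fold in any of the 4 comparisons. The B chain gene PDGFB, whose product binds both receptors, had 4 probe sets reading 0.6 to 25.6. Only 216061_x_at reached 17.2, on the silenced array labelled serum-free (25.6), where it was at least 2.35-fold above the induced array (9.9) and at least 2.35-fold above the silenced array labelled serum (8.4). The suffix _x_at marks probe sets whose probes also match other sequences, and the other 3 PDGFB probe sets were at most 12.3. PDGFD, a ligand of the beta receptor, read 1.5 to 11.1 over 2 probe sets, with none reaching 17.2. Of the ligands, PDGFC was the one whose probe sets reached 100, which they did on every array. Signals of different probe sets are not ranked against each other here.

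In the arrays labelled serum, 4 of the 7 genes could be compared between DACH1 states. PDGFRA was at least 2-fold higher, as were 2.91% of 12190 genes, and PDGFC at least 2-fold lower, as were 4.77%. With bounds ranked at their bound, PDGFRA had the highest difference after DACH1 (log2 differences 5.06 and 5.14). That order depends on the probe sets used. Over the mean of all probe sets PDGFRA was at 1.97 and DACH1 at 1.74, and without _x_at and _s_at probe sets they were at 5.06 and 0.10. In the arrays labelled serum-free 4 of the 7 were compared, and PDGFB alone passed 2-fold, as lower, as did 2.72% of 12659 genes, while 1.02% were higher. The PDGFB call did not hold with a pseudocount or over the mean of its probe sets, where its log2 difference was -0.81 and -0.32. Only 0.151% of genes with a signal of 100 or more passed 2-fold there in either direction, whereas 12.3% of 3394 genes did where the brighter array read 17.2 to 50, as it did for PDGFB. Between media, PDGFC was at least 2-fold higher and PDGFRA lower in induced cells, where 14% of 12371 genes were higher and 10.1% lower. PDGFRB and PDGFB were at least 2-fold higher in silenced cells, where 15.3% of 12906 genes were higher and 12.2% lower. For PDGFB that call too was lost with a pseudocount and over the mean of its probe sets, at 0.92 and 0.32. These shares are large, so passing 2-fold between media does not set a PDGF gene apart. The comparisons share arrays in pairs, so the induced array labelled serum enters both the DACH1 and the medium difference of PDGFRA.

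**Figure D2:**
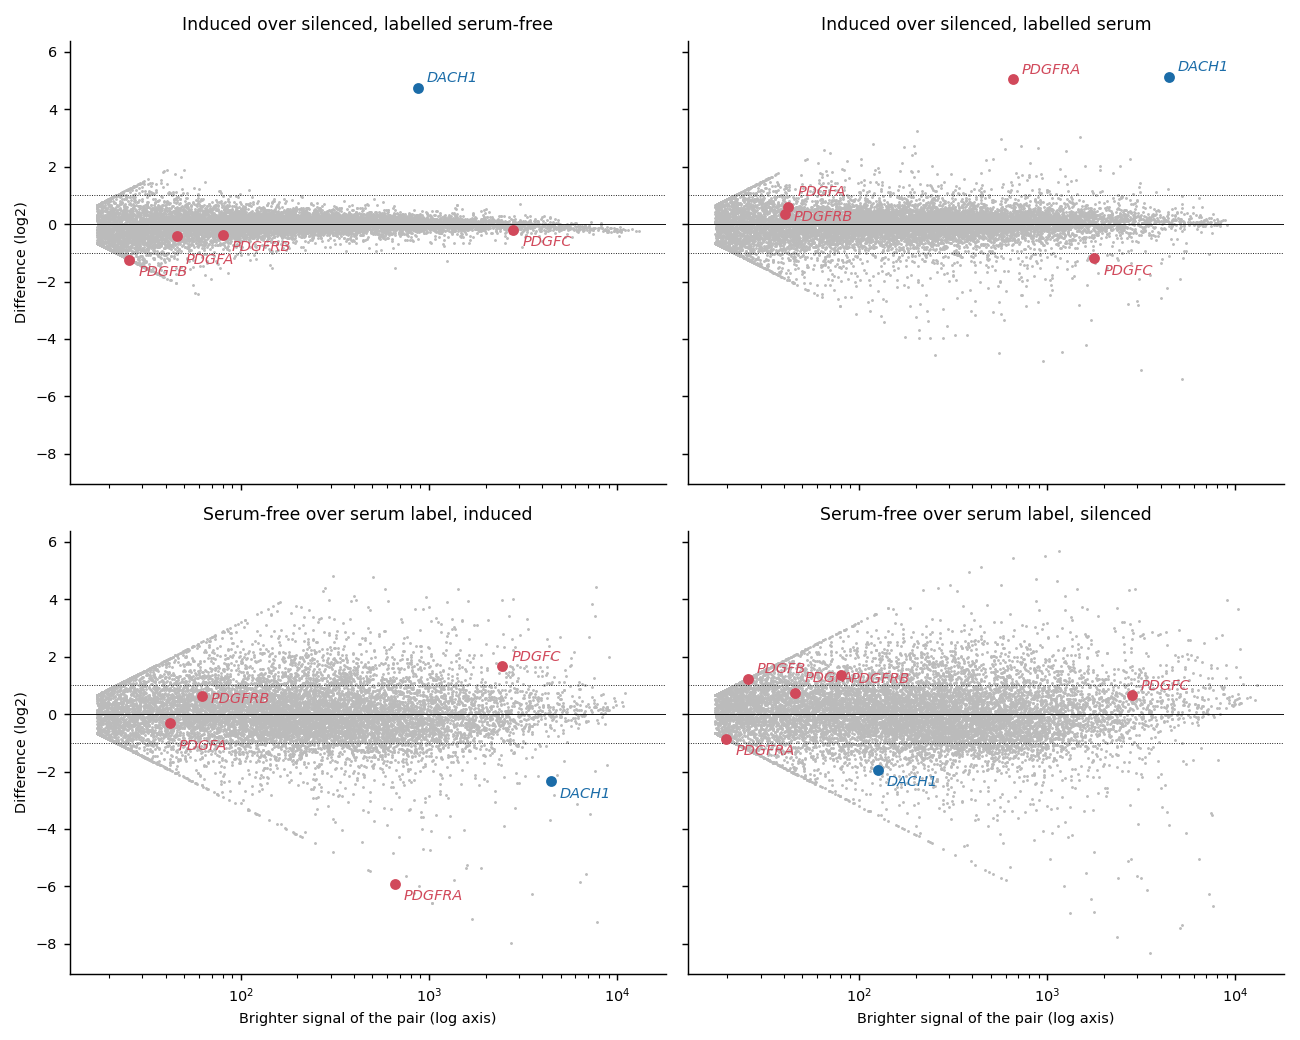
Log2 difference of every compared gene (grey) against the brighter signal of its pair (log axis) in the 4 comparisons, with the PDGF genes in red and DACH1 in blue; dotted lines mark 2-fold. PDGFRA stands beside DACH1 at a log2 difference of 5.06 in the arrays labelled serum and is not drawn for the arrays labelled serum-free, where both signals were under the floor.

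Genes whose signals ran most like PDGFRA and PDGFC over the 4 arrays were sought among 8081 genes with a signal of 100 or more, by the distance between log2 profiles centred on their means. For PDGFRA the nearest were SERPIND1, which encodes heparin cofactor II, at a distance of 1.76, the cornified envelope gene SPRR3 at 1.83 and the melanosome transport gene MREG at 1.86. SERPIND1 read 195.9 in induced and 30 in silenced cells labelled serum, and 1 and 4.9 in those labelled serum-free. SPRR3 read 172.9 and 26.9, then 0.7 and 1.7, and MREG read 595.3 and 96.5, then 40.5 and 23.6, in the same order. PDGFC had closer neighbours: the cytokine receptor gene IL20RB at 0.08, the butyrylcholinesterase gene BCHE at 0.16 and EVI2A at 0.19. IL20RB read 44.2 and 95.6 in induced and silenced cells labelled serum, and 129.9 and 154.5 in those labelled serum-free. With 4 arrays, such likeness is a description.

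The genes compared beside PDGFRA on chromosome 4 did not differ between DACH1 states as far as it did. KIT and KDR, which encode related receptor tyrosine kinases, lie on its far side, and CHIC2, GSX2, LNX1 and FIP1L1 lie before its start. None of the 5 neighbours compared was 2-fold different between DACH1 states in either medium. Of all genes, 7.68% differed by at least 2-fold labelled serum and 3.74% labelled serum-free. With 5 genes, such a count does not set the neighbours apart from these shares. Among the neighbours CHIC2 and KDR differed most, both labelled serum. CHIC2 read 636.6 in induced and 326.7 in silenced cells (1.95-fold higher), and KDR 127.8 and 72.1 (1.77-fold higher). In this pair 90% of genes differed by less than 1.68-fold where the brighter array read 100 to 200. At 200 to 1000 they differed by less than 1.66-fold. KDR and CHIC2 thus lay beyond that range, and both were highest on the array where PDGFRA was highest. FIP1L1, LNX1 and GSX2 were not. GSX2, whose midpoint lies closest to the PDGFRA start, read 13.1 in induced and 19 in silenced cells labelled serum (1.45-fold lower). Its probe set has the suffix _x_at too. Genes whose brighter signal was 17.2 to 50 differed in that pair by a median of 1.38-fold. KIT was under the floor on all arrays. KDR was also lower under the serum-free label, 23.1 against 127.8 in induced cells (5.53-fold) and 26.7 against 72.1 in silenced cells (2.70-fold).

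**Figure D3:**
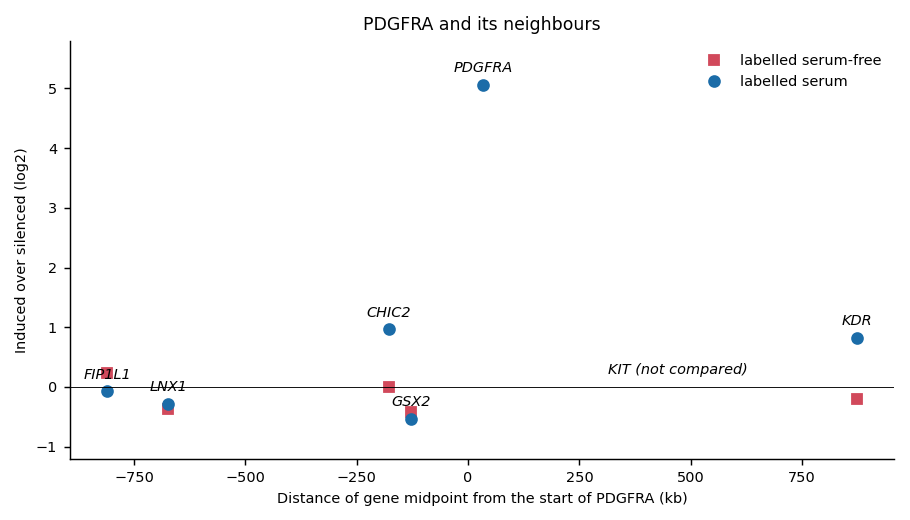
Log2 difference between induced and silenced cells for PDGFRA and its neighbours on chromosome 4, by the distance of each gene's midpoint from the PDGFRA start in kb, with squares for the serum-free and circles for the serum label. PDGFRA stands at 5.06 and the neighbours lie between -0.54 and 0.96; PDGFRA has no square because both signals were under the floor, and KIT was not compared.

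The other genes of the pathway were read from lists chosen with results of these arrays known. Among adaptors and effectors that bind activated PDGF receptors, 1 of 16 was at least 2-fold higher and 1 lower with DACH1 induced in the arrays labelled serum, against 2.91% and 4.77% of all genes. The median log2 difference was 0.14, against 0.01 over all genes. SRC, the founding Src family kinase gene, read 143.5 in induced and 58.0 in silenced cells (2.47-fold higher). PIK3R1, a regulatory subunit gene of PI3-kinase, read 91.6 and 198.0 (2.16-fold lower). In the arrays labelled serum-free 0 of 16 passed 2-fold, while 3.74% of all genes did, and SRC read 145.4 and 144.5. Of genes with a signal of 100 or more, only 0.151% passed 2-fold there, and all of the 16 but GAB1 and STAT5B were that bright. PTPN11, SHC1 and FYN were bright on all arrays, between 1313 and 2289, and differed by at most 1.17-fold between DACH1 states.

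With DACH1, 7.68% of all genes passed 2-fold in the arrays labelled serum and 3.74% in those labelled serum-free. Of the proteases and binding partners of PDGF, 0 of 9 compared did so labelled serum and 0 of 8 labelled serum-free. Only 0.151% of genes with a signal of 100 or more passed 2-fold labelled serum-free, and all of the 8 but FURIN were that bright. Under the serum-free label 3 of 9 were at least 2-fold higher in induced cells and 5 of 8 in silenced cells, and 0 were lower, while 14% and 15.3% of all genes were higher. Their medians were 0.37 and 1.48, against 0.39 and 0.50 for the housekeeping genes and 0.01 and 0.06 over all genes. PLAT, which encodes the tissue plasminogen activator that cleaves PDGF-C, read 192.8, against 50.5 under the serum label, in induced cells (3.82-fold higher), and 214.7, against 51.5, in silenced cells (4.17-fold higher). SPARC, whose product binds PDGF, read 4321, against 830, in induced cells (5.21-fold higher), and 5009, against 663.5, in silenced cells (7.55-fold higher). PLAU, which encodes the urokinase that cleaves PDGF-D, was 1.90-fold and 1.67-fold lower in the same pairs. PLAT and PDGFC were thus both higher under the serum-free label, in both DACH1 states. In silenced cells the PDGFC log2 difference was 0.66, against the median of 0.50 for the housekeeping genes. A link between PLAT and PDGFC was not tested.

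Negative regulators of PDGF receptor signalling were lower under the serum-free label in most cases. Of 6 compared, 3 were at least 2-fold lower in induced and 4 in silenced cells, and 0 were higher, while 10.1% and 12.2% of all genes were lower. Their medians were -0.99 and -1.17, but -0.21 and -0.44 over the mean of all probe sets. PTPN12, a tyrosine phosphatase gene, read 452.1, against 1430, in induced cells (3.16-fold lower), and 473.6, against 1840, in silenced cells (3.88-fold lower). CBL, which encodes a ubiquitin ligase that acts on activated receptors, read 134.5, against 337.5, in induced cells (2.51-fold lower), and 165.7, against 354.8, in silenced cells (2.14-fold lower). With DACH1 induced 0 of the 6 passed 2-fold in either medium, while 7.68% of all genes did labelled serum and 3.74% labelled serum-free. Labelled serum-free, only 0.151% of genes with a signal of 100 or more did so, and each of the 6 was that bright. CBLB was 1.86-fold lower in the arrays labelled serum-free.

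**Figure D4:**
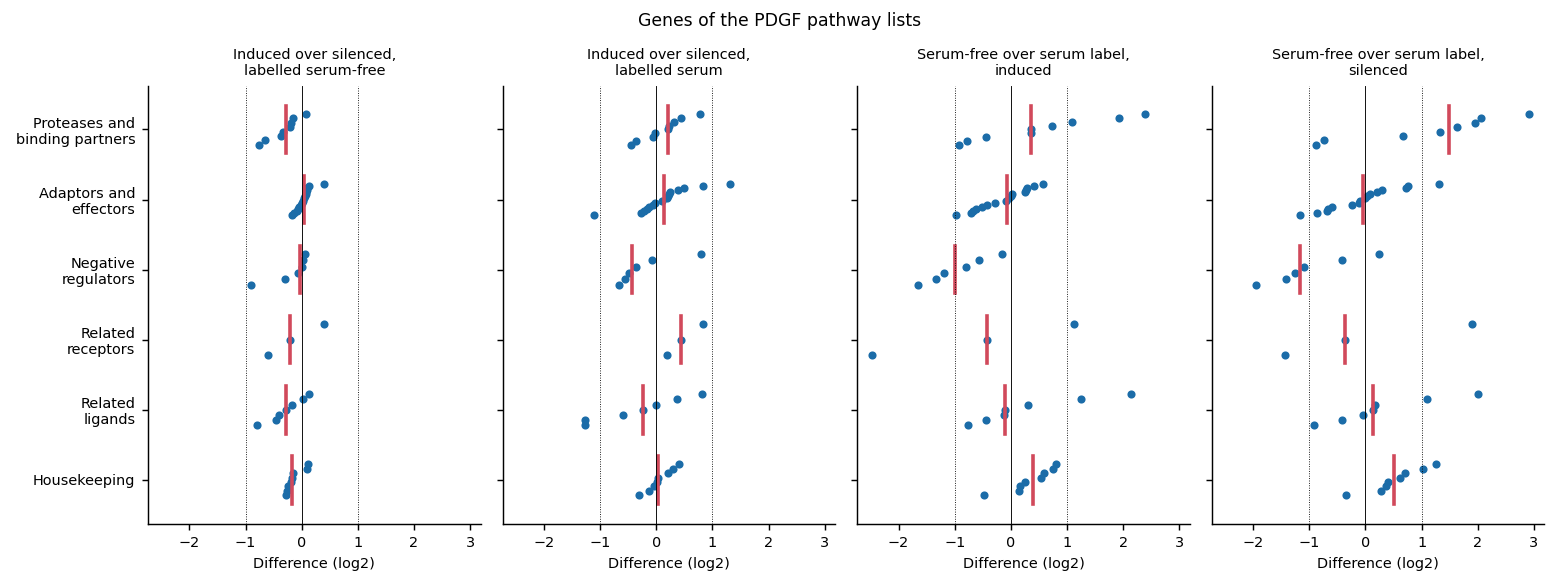
Log2 differences of the compared genes of the PDGF pathway lists and of housekeeping genes (1 point per gene, red bar for the list median, dotted lines at 2-fold) in the 4 comparisons. The points lie close to 0 between DACH1 states labelled serum-free, and between media the negative regulators lie mostly below 0 and the proteases and binding partners mostly above.

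Markers of other cells that carry PDGF receptors were read beside these results. Of 6 oligodendrocyte progenitor markers, 4 stayed under 17.2 on all arrays, namely SOX10, OLIG1, NKX2-2 and PTPRZ1. OLIG2 read 79.9 in induced and 58.4 in silenced cells labelled serum, and 12.3 and 12.2 in those labelled serum-free. CSPG4 changed less, at 75.2 and 46.4, then 47.3 and 42.3, in the same order. The summed signal of the list was 179.6 in induced and 116.5 in silenced cells labelled serum, and 83.5 and 83.8 in those labelled serum-free. OLIG2 and CSPG4 made up most of this sum on each array, and signals under the floor were added as read. Of 6 pericyte and mural markers, ANPEP and NOTCH3 did not reach 17.2, and RGS5 read 57.0 in induced and 132.5 in silenced cells labelled serum, and 18.6 and 15.8 in those labelled serum-free. The list did not run one way: KCNJ8 was at least 1.98-fold higher in silenced cells and DES 1.53-fold higher in induced cells under the serum-free label. Between DACH1 states 2 of the 4 markers compared were higher and 2 lower in each medium. With DACH1 induced DES was at least 1.79-fold higher labelled serum (19.5, against 1.9). Labelled serum-free it was at least 2.73-fold higher (29.8, against 3.3). The 6 fibroblast markers summed to 17414 in induced and 19922 in silenced cells labelled serum-free, and to 2941 and 4869 in those labelled serum. COL1A1 and COL1A2 made up most of the sum under the serum-free label. DCN ran the other way, at 73.7, against 485.3 under the serum label, in induced cells (6.58-fold lower), and at 72.5, against 1349, in silenced cells (18.6-fold lower), and THY1 was 1.85-fold lower in induced cells. With DACH1 induced labelled serum, FAP (4.46-fold), DCN (2.78-fold) and LUM (2.10-fold) were lower, so 3 of the 6 passed 2-fold as lower. COL1A2 and THY1 were higher, by less than 2-fold. Of all genes, 4.77% were at least 2-fold lower there and 2.91% higher. Labelled serum-free, 0 of the 6 passed 2-fold, while 3.74% of all genes and 0.151% of those with a signal of 100 or more did. Of 6 endothelial and immune markers, 5 did not reach 17.2 on any array. The part of these markers in the PDGF results was not tested. All 4 samples are cultures of U87TR-Da. In bulk RNA fewer cells with a transcript and less of it per cell cannot be told apart.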

How the data were processed

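Gene expression in 4 U87TR-Da cultures was measured on Affymetrix arrays from 6 µg of total RNA each. The authors deposited linear signal intensities, 1 for each probe set and array; the submitters' processing notes name MAS5. Its version and target intensity were not found in the labels. Means after trimming 2% at each end were 99.6 to 99.7 on all arrays. Of 54613 probe sets, 41091 had 1 gene in the platform annotation and 1801 had several, while the other 11721 had no entry and are not named. Symbols were updated by Entrez identifier for 99.9%. Columns of other samples numbered 0.

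Signals under the 40th percentile (10.9) were raised to it before log2. A gene was represented by whichever of its probe sets then averaged highest over the arrays. A gene was compared if 1 of the 2 arrays reached 17.2. Each comparison sets 1 array against 1 array, so no test was run, and genes were counted at 2-fold. "At least" precedes a fold whose dimmer array was under the floor. The counting was tested on simulated arrays, where 200 of 200 changed genes and 0 of 11621 unchanged genes were counted. That checks the counting only and gives no rate of false calls on the real arrays, where no condition was repeated. Alternatives were quantile normalization, equal array medians, no floor, a floor of 50, a pseudocount, the mean of all probe sets, no _x_at or _s_at probe sets, no filter and a filter on both arrays.

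The members, the 14 gene lists (114 genes, 13 of them not named here) and the rules were chosen with earlier results of these data known. The genes to name were the members, DACH1, up to 4 genes per list and comparison with the largest difference among those reaching 100, markers needed to say which were at the floor, and the 3 nearest in likeness. A list gene outside this rule was chosen after its values were seen. Computation used matplotlib 3.10.9, numpy 2.4.6 and pandas 2.3.3 under Python 3.11.15.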

Additional observations from a re-analysis of the deposited data

Results flagged for a closer look

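PDGFA and PDGFRB differed in opposite directions with DACH1 in the 2 media, and this difference was not tested. For PDGFRB the log2 difference between induced and silenced cells was -0.37 labelled serum-free and 0.35 labelled serum. For PDGFA it was -0.43 labelled serum-free and 0.61 labelled serum, and the difference between media turned too, at -0.30 in induced and 0.73 in silenced cells. Both PDGFA patterns come from the same 4 signals. Of 11475 genes compared in both media, 47.6% had DACH1 differences of opposite sign, and none of these PDGFA and PDGFRB values passes 2-fold.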

How the results depend on the processing

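Log2 differences of the PDGF genes kept their sign under every alternative that gave a value, and PDGFC moved by less than 1.5-fold in each comparison. PDGFRA with DACH1 induced in the arrays labelled serum, 5.06 as reported, was 4.45 with a pseudocount, 3.71 with a floor of 50, 1.97 over the mean of all probe sets and 2.82 with the probe set chosen by unfloored signal, the last an alternative chosen after seeing the data. Its medium difference in induced cells, a bound of -5.91, was -5.02, -3.71, -2.25 and -3.09 under the same settings. In silenced cells, a bound of -0.85 became -4.45 with no floor and -0.19 over the mean of all probe sets. PDGFB, with bounds of -1.23 with DACH1 labelled serum-free and 1.23 between media in silenced cells, was -0.32 and 0.32 over the mean of its probe sets and -0.81 and 0.92 with a pseudocount, all under 2-fold.

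Counts of genes past 2-fold depended most on the settings in the arrays labelled serum-free, where 129 higher and 344 lower became 210 and 597 with no floor, 74 and 220 with a pseudocount, 68 and 177 over the mean of all probe sets, 24 and 63 with both arrays above the median, and 2 and 9 with a floor of 50. The lower count was 213 with quantile normalization and 187 with equal array medians. In the arrays labelled serum, 355 higher and 581 lower became 165 and 258 with a floor of 50, and 223 and 356 with both arrays above the median. With a floor of 50, genes higher under the serum-free label came to 1155 in silenced and 1075 in induced cells. Scaling moved the balance of directions: of the genes past 2-fold labelled serum-free, 72.7% were lower, 58.2% with quantile normalization and 49.9% with equal medians. Equal medians shifted the median of all genes by 0.18 there and by -0.26 and -0.14 between media in silenced and induced cells, and gave 61.7% lower in silenced and 53.1% lower in induced cells, against 44.5% and 42.0%. The cause was not tested beyond these constructions.

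No paired analysis was possible because each condition has 1 array, and leaving out an array removes its comparison. No difference has an error. PDGFRL and PDGFD had no level above the filter. A floor of 50 gave no value for PDGFRB, PDGFA and PDGFB, nor for PDGFRA between media in silenced cells. Leaving out _x_at and _s_at probe sets gave none for PDGFA and PDGFB. Requiring both arrays above the median gave none for PDGFB and for PDGFRA between media, and the added alternative gave none for PDGFRA between media in silenced cells.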

Other observations

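Genes related to the PDGF family were read on the same arrays. Among related ligands, VEGFC, a lymphatic growth factor gene, read 220.2 in induced and 532 in silenced cells labelled serum (2.42-fold lower) and 161.4 and 281.9 in those labelled serum-free (1.75-fold lower). KITLG, the stem cell factor gene, read 107.2 and 259.6 labelled serum (2.42-fold lower) and 253.1 and 284 labelled serum-free. Like PDGFC, both were thus lower with DACH1 induced in the arrays labelled serum; 2 of 7 related ligands passed 2-fold there, both as lower, while 4.77% of all genes were lower and 2.91% higher. VEGFA was bright throughout, at 4873 and 3763 in induced and silenced cells labelled serum. VEGFB read 247.9, against 56.3 under the serum label, in induced cells (4.4-fold higher), and 226.2, against 56.5, in silenced cells (4-fold higher). Of 6 related receptor genes, KIT, FLT3 and FLT4 did not reach 17.2 on any array. None of the other 3 passed 2-fold with DACH1, while 7.68% of all genes did labelled serum and 3.74% labelled serum-free.

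Sterol synthesis genes were read as a check of the media. Of 3 compared, 2 were at least 2-fold higher with DACH1 induced in the arrays labelled serum, and 0 passed 2-fold in those labelled serum-free. Of all genes, 2.91% were higher labelled serum, and 1.02% were higher and 2.72% lower labelled serum-free. Among genes with a signal of 100 or more, 0.151% passed 2-fold labelled serum-free. HMGCS1, a cholesterol synthesis enzyme gene, read 796 in induced and 253.2 in silenced cells labelled serum (3.14-fold higher), and 213.3 and 243.6 in those labelled serum-free. SQLE, the squalene epoxidase gene, read 834 and 367.6 labelled serum (2.27-fold higher), and 559.5 and 599.6 labelled serum-free. INSIG1, the third gene, read 4186 and 3979 labelled serum (1.05-fold higher), and 2786 and 2627 labelled serum-free. Between media the list medians were -0.59 in induced and -0.06 in silenced cells, against 0.01 and 0.06 over all genes. Under the serum-free label HMGCS1 was 3.73-fold lower in induced cells and SQLE 1.63-fold higher in silenced cells. The fibroblast marker FAP, which encodes a serine protease, read 172.3 in induced and 769.1 in silenced cells labelled serum (4.46-fold lower), and 894.8 and 1087 in those labelled serum-free.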
